A study of Mus musculus with 2 samples.

Results

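The S100 and cornified envelope genes were taken as all genes measured in both mouse bladder libraries whose symbol is S100a or Lce followed by its number and letters, plus 16 genes named one by one. The 16 were Ivl, Lor, Flg, Flg2, Rptn, Hrnr, Crnn, Crct1, Tchh, Kprp, Tgm1, Tgm2, Tgm3, Tgm5, Evpl and Csta1, and the Sprr genes were left out. The rule found 50 of the 43346 genes measured: 13 S100 genes, 21 late cornified envelope genes, 6 fused S100 genes, 4 envelope precursors, 4 transglutaminases, and Evpl and Csta1. The rule used symbols only and no measured value.

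The libraries hold polyadenylated RNA of urinary bladder tissue from C57BL/6J mice aged 8 weeks (adult), for which the labels name no treatment and no altered allele, and form 1 group of 2 biological replicates. The labels describe littermates of mixed sex and name the same donor entry for both libraries, but give neither the number of animals in a library nor whether animals differ between libraries, so an SD here measures only the spread between these samples and may be technical. Replicate 1 had 99367453 estimated counts on genes and replicate 2 had 105057347. With no second group there was no contrast to test, so levels are given in each library in TPM (abundance per transcript length and library size) and as mean ± SD with n = 2.

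S100 proteins are small calcium-binding proteins that act mostly as dimers and change shape and partners when calcium binds. The cornified envelope is the protein shell that replaces the plasma membrane of dying keratinocytes in skin: plakins lay a scaffold under the membrane, and transglutaminases cross-link involucrin, loricrin, small proline-rich and late cornified envelope proteins onto it. Fused S100 proteins such as filaggrin join an S100 domain to long repeats and belong to the outermost keratinised layers. The urothelium that lines the bladder is stratified but normally not keratinised, and its surface cells carry uroplakin plaques in place of a cornified layer.

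Detection differed by role. Of the 50 genes, 15 reached at least 1 TPM in both libraries: 10 of the 13 S100 genes, 3 of the 4 transglutaminases, involucrin (Ivl) and envoplakin (Evpl). None of the 21 late cornified envelope genes and none of the 6 fused S100 genes did. The 15 amount to 30% of the set, against 60.5% of 21474 protein-coding genes, and 23 members (46%) had 0 counts in both libraries, against 17.8% of protein-coding genes. Together the 50 genes held 0.517% of gene TPM in replicate 1 and 0.80% in replicate 2 (0.658% ± 0.200), and S100 genes supplied 92.2% and 94.5% of that (93.4% ± 1.6). S100 transcripts are short, and of the expected counts, which are not divided by length, S100 genes held 71.8% of the members' total.

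**Figure D1:**
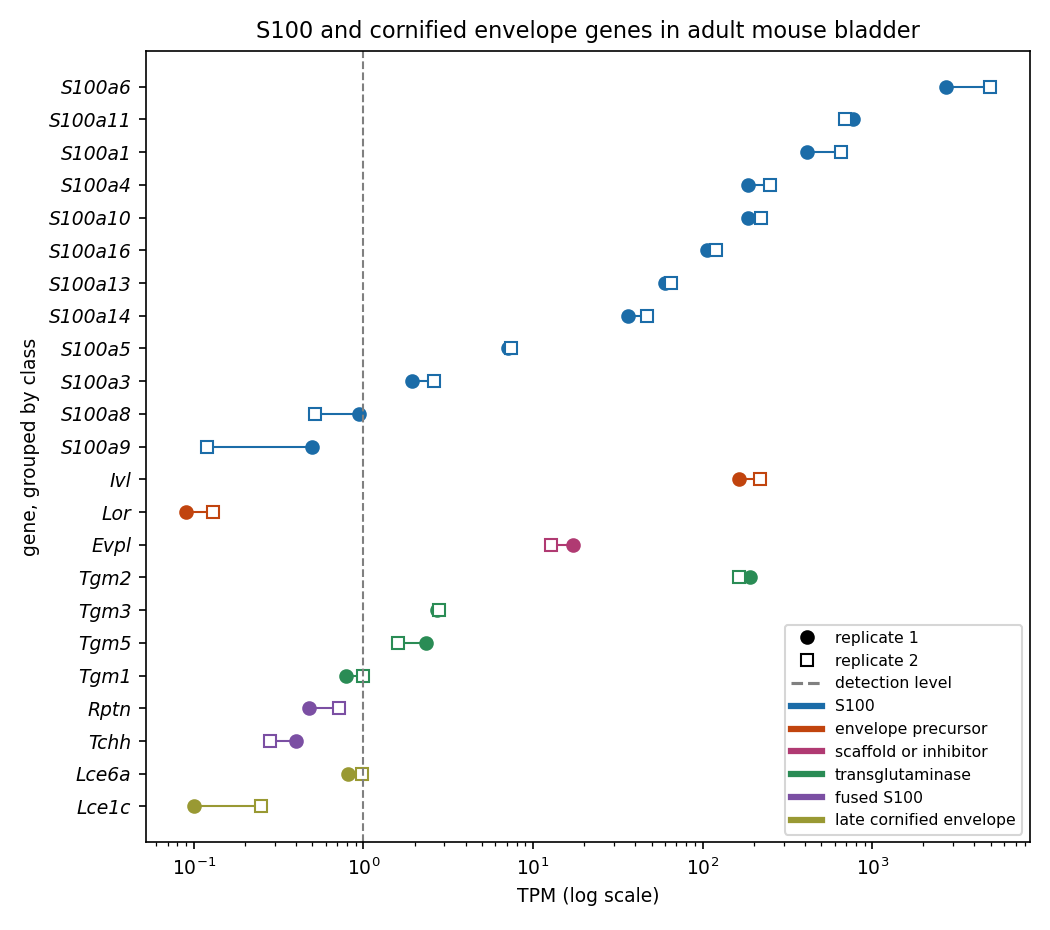
TPM (log axis) of the 23 members with at least 10 expected counts in either library, with filled circles for replicate 1 and open squares for replicate 2, grouped and coloured by class; the dashed line is the detection level of 1 TPM. The S100 genes reach from 4914 TPM for S100a6 down to 0.12 TPM for S100a9, Ivl lies at 163 TPM or more in both libraries and Lor lies at or under 0.13 TPM.

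Promoters are shown for 3 genes that span the range of levels within the chromosome 3 cluster: S100a6, the highest member, Ivl, the only detected envelope precursor, and Lor, a precursor of the same envelope that was nearly silent. Each window runs from 250 bases before to 50 bases after the RefSeq start site on build GRCm38.p6, and is written 5′ to 3′ on the strand of the gene. Capitals mark matches to TATAAA (the TATA box) or TGANTCA (the AP-1 site), searched with CCGCCC and ACCGGT on both strands.
S100a6, chr3:90612644-90612943, plus strand: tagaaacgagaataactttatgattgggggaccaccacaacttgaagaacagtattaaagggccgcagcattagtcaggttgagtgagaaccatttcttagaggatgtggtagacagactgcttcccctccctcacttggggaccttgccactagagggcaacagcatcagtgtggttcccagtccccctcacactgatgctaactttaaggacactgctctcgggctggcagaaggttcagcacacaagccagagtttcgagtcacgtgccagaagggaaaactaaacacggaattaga
Ivl, chr3:92573686-92573985, minus strand: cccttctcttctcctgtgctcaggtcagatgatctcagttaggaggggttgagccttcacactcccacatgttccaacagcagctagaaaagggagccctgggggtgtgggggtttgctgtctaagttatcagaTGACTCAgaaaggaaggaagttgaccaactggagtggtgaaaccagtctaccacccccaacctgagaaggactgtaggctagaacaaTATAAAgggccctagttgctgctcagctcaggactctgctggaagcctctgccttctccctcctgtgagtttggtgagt
Lor, chr3:92083093-92083392, minus strand: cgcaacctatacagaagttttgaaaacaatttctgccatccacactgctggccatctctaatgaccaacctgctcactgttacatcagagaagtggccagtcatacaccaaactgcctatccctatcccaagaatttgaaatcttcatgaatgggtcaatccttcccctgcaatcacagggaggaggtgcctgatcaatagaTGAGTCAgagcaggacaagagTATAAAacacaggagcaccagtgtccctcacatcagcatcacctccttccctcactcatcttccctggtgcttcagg

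Ivl and Lor thus carried the same pair of motifs, and their levels lay far apart. The pair also stood in the windows of Crnn, Flg and Rptn, which were not detected. Whether the motifs bear on the levels was not tested. In Ivl the TATAAA match began at position -29 from the start site and the AP-1 match at -116, and in Lor they began at -27 and -48. The S100a6 window held none of the 4 motifs. RefSeq windows were found for 42 members, 11 of them detected. TATAAA stood in 15 of the 42, in 4 of the 11 detected and in 11 of the 31 others, against 15.7% of 27025 genes with a window. TGANTCA stood in 8 of the 42 (3 of the 11 detected, 5 of the 31 others), against 8.97% of all genes, CCGCCC (a GC box) in 5 against 38.2%, and ACCGGT (a grainyhead core) in 1, S100a13, against 2.68%. A match is a description of the letters in these windows and not of a factor bound there.

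S100a6 (calcyclin), which binds annexins and the calcyclin-binding protein, led the set. It had 2708 TPM in replicate 1 and 4914 TPM in replicate 2 (3811 ± 1560), which placed it 23rd of all genes by mean level. It alone made up 60.5% and 70.6% of S100 TPM. S100a6 lies on chromosome 3, 90612882 to 90624181 (mm10).

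S100a11 (calgizzarin), a partner of annexin A1, was listed next with 771 TPM in replicate 1 and 686 TPM in replicate 2. S100a1, best known for regulating calcium handling in heart muscle, had 414 and 651 TPM. S100a1 and S100a13 lie head to head on opposite strands 42 bases apart, and S100a13, which takes part in the release of proteins without a signal peptide, had 60.2 and 64.9 TPM. The log2 ratio of S100a1 to S100a13 was 2.77 in replicate 1 and 3.32 in replicate 2 (3.04 ± 0.38).

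S100a4, which binds non-muscle myosin IIA, had 185 and 248 TPM. In the later annotation M21, 41.8% of its windows of 101 bases, the labelled read length, also occur in Gm42674, a gene that overlaps S100a3 and S100a4. In the deposited tables that transcript was counted within S100a4 and held 0.25% and 0.14% of it. S100a10 (p11), which does not bind calcium and forms a tetramer with annexin A2, had 185 and 222 TPM. S100a4 and S100a10 were level in replicate 1, and their ranges overlapped.

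S100a16 had 105 and 119 TPM, and S100a14, an epithelial S100 protein, had 36.3 and 47.1 TPM. S100a5, known from olfactory neurons, had 7.15 and 7.40 TPM on 123 and 133 counts. S100a3, known from the hair cuticle, had 1.92 and 2.61 TPM on 76 and 111 counts.

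The calprotectin subunits S100a8 and S100a9, which neutrophils carry in large amounts, had 0.94 and 0.50 TPM in replicate 1 and 0.52 and 0.12 TPM in replicate 2. These rest on 14 and 8 counts of S100a8 and on 12 and 3 counts of S100a9. Of 9 neutrophil markers 1 (Csf3r) reached 1 TPM in both libraries, against 60.5% of protein-coding genes. The summed level of the 9 was 1.79 and 2.10 TPM, and Ly6g had 0 counts. S100a2 had 0 counts in both libraries.

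Among the envelope precursors, involucrin stood alone. Ivl had 163 TPM in replicate 1 and 219 TPM in replicate 2 on 21645 and 31797 counts. Its annotated intron was crossed by 1859 junction reads in the mm9 alignments, summed over both libraries. Lor (loricrin, the main envelope protein of epidermis) had 0.09 and 0.13 TPM on 11 and 17 counts, and Crct1 and Kprp had 0 counts. Ivl and Lor lie 487.8 kb apart on the same strand.

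The fused S100 genes were close to absent. Rptn (repetin) had 0.48 and 0.72 TPM on 146 and 242 counts, with 5 and 8 junction reads on its 2 introns, and Tchh (trichohyalin of the hair follicle) had 0.40 and 0.28 TPM on 172 and 133 counts, with 0 reads on its annotated intron. Crnn (cornulin) and Hrnr (hornerin) had 3 and 2 counts in replicate 1 and 0 in replicate 2. Flg (filaggrin) and Flg2 had 0 counts in both libraries, which at a floor of 3 counts allows up to 0.0302 CPM (counts scaled to the gene total) in replicate 1 and 0.0286 CPM in replicate 2. These limits cover counting error only.

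Of the 21 late cornified envelope genes, 18 had 0 counts in both libraries. Lce6a came nearest to detection with 0.81 and 0.98 TPM on 19 and 31 counts, and its 2 introns had 6 and 1 junction reads. Lce1c had 0.10 and 0.25 TPM on 4 and 11 counts, and Lce1e had 0 and 1 count. Of the 50 members, 19 share windows of read length with another gene, and 16 of these are late cornified envelope genes, with shares of up to 42.9% in Lce3f. The genes these 16 share most windows with belong to the same family. For Lce3f they are Lce3e, Lce3c and Lce3d, each at 0 counts in both libraries. Over the 23 members at 0 counts, the highest upper bound of the authors' TPM interval was 0.879, for Lce1m.

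Among the transglutaminases Tgm2 stood far above the other 3, which lay within a few TPM of each other. Tgm2, the widespread tissue enzyme that also cross-links matrix, had 190 TPM in replicate 1 and 164 TPM in replicate 2 (177 ± 18). Tgm1, the membrane-bound keratinocyte enzyme, had 0.79 and 1.00 TPM on 155 and 217 counts. The log2 ratio of Tgm1 to Tgm2 was -7.21 in replicate 1 and -6.78 in replicate 2 (-6.99 ± 0.30). Tgm3, known from hair and upper epidermis, had 2.70 and 2.79 TPM, and Tgm5 had 2.34 and 1.59 TPM.

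Spliced reads covered the end of the Tgm3 gene but hardly its start. Of its 12 annotated introns, introns 1 to 5 and intron 7 were crossed by 0 reads, intron 6 by 3, and introns 8 to 12 by 86, 142, 243, 307 and 290. Tgm5, at a lower TPM, had reads on all 12 introns, from 25 to 98. Tgm1 had reads on 13 of 15, up to 41. Introns 1 and 2 of Tgm1, alternatives that share an end nearest its start, had 0 reads, so its annotated start was not reached by spliced reads either. Tgm2 had up to 5625 on an intron. The Tgm3 TPM is scaled to a transcript of 4135 bases, so it is uncertain as a level of the full-length RNA. Another junction, with 14 reads, joined the end of intron 8 to an unannotated site inside that intron.

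**Figure D2:**
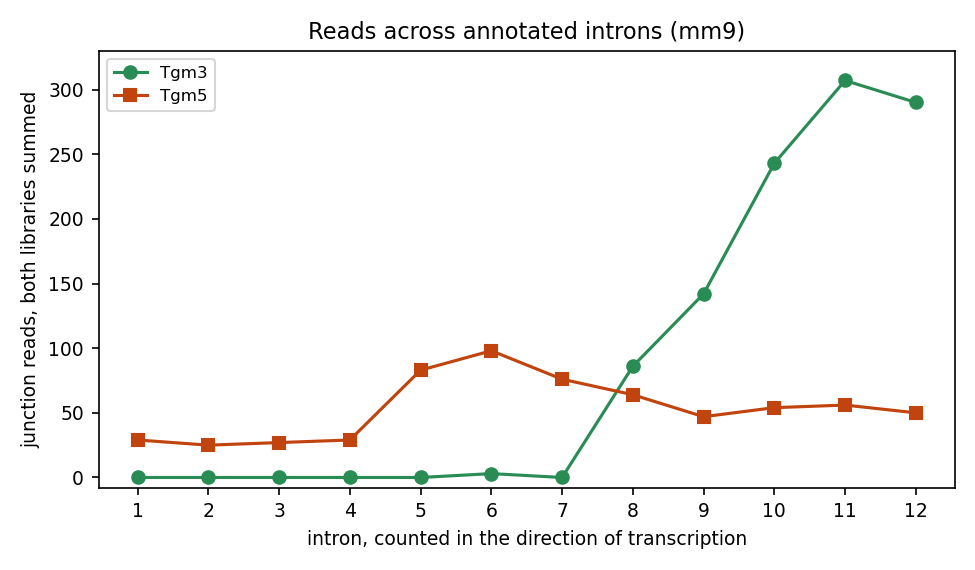
Junction reads of both libraries, summed (linear axis), across introns 1 to 12 of Tgm3 (circles) and Tgm5 (squares) in the direction of transcription. Tgm3 stays between 0 and 3 reads up to intron 7 and reaches 307 at intron 11, while Tgm5 has 25 to 98 throughout.

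Evpl, a plakin of the envelope scaffold, had 17.3 TPM in replicate 1 and 12.7 TPM in replicate 2, with reads on all 21 annotated introns. Its partner periplakin (Ppl) had 22.7 and 16.8 TPM, and the ratio of Evpl to Ppl was 0.760 in replicate 1 and 0.758 in replicate 2. Csta1 (a cystatin A gene, an inhibitor of cysteine proteases) had 5 counts in each library, while 2 of its 3 annotated introns had 12 and 6 junction reads in the mm9 alignments.

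The order of the 15 detected genes was largely shared by the libraries. Of the 14 pairs of neighbours by mean level, 12 had the same order in both. Tgm2 exceeded Ivl in replicate 1 and Ivl exceeded Tgm2 in replicate 2, and Tgm5 exceeded S100a3 in replicate 1 and S100a3 exceeded Tgm5 in replicate 2. The ranges of 4 neighbouring pairs overlapped: these pairs, S100a4 with S100a10, and S100a10 with Ivl.

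Most detected members used 1 main transcript. Of the 15 genes, 8 had more than 1 transcript in the annotation. S100a14-202 held 86.4% of the gene in replicate 1 and 91.4% in replicate 2, and S100a14-201 held the remaining 13.6% and 8.58%. S100a16-202 held 89.3% and 91.5% among 8 transcripts. S100a4-201 held 94.4% and 95.5%, and S100a1-201, S100a10-201, Tgm2-201 and Tgm5-201 each held over 97% in both libraries. S100a5-201 held 100% in replicate 1 and 85.1% in replicate 2 on few counts, and its first annotated intron had 6 junction reads against 33 on a junction that keeps its left end and stops at an unannotated site.

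S100a11 was the member whose level depended most on the quantification. In the authors' mm9 tables, which give reads scaled to transcript length and library size (RPKM), its mean was 24.5 RPKM, and it ranked 6th among the 15 genes in place of 2nd, below S100a1 (74.1 RPKM), Ivl (31.9), Tgm2 (27.5) and S100a10 (25.0). Its mm10 TPM was 29.8 times its mm9 RPKM, against a median of 6.36 over 13015 protein-coding genes and a 5th to 95th percentile of 4.51 to 11.3. Its 2 introns had 379 and 667 junction reads, against 203920 and 279716 for S100a6, which is 1.85 reads at the top junction per 100 expected counts for S100a11 and 87.3 for S100a6. Over 12750 protein-coding genes the median of this value was 8.64 and the 5th to 95th percentile 2.37 to 30.3, so S100a6 was itself extreme. Evpl (2.37) and Ivl (3.48) were low as well. S100a11 was also the only member whose expected counts were not whole (18543.8 and 17446.26), and 33.8% of its windows of 101 bases occur in processed pseudogenes. Of these Gm12854 on chromosome 4 was listed with 13.8 and 10.8 TPM. The part of shared sequence in this difference was not tested, and the S100a11 level is uncertain.

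**Figure D3:**
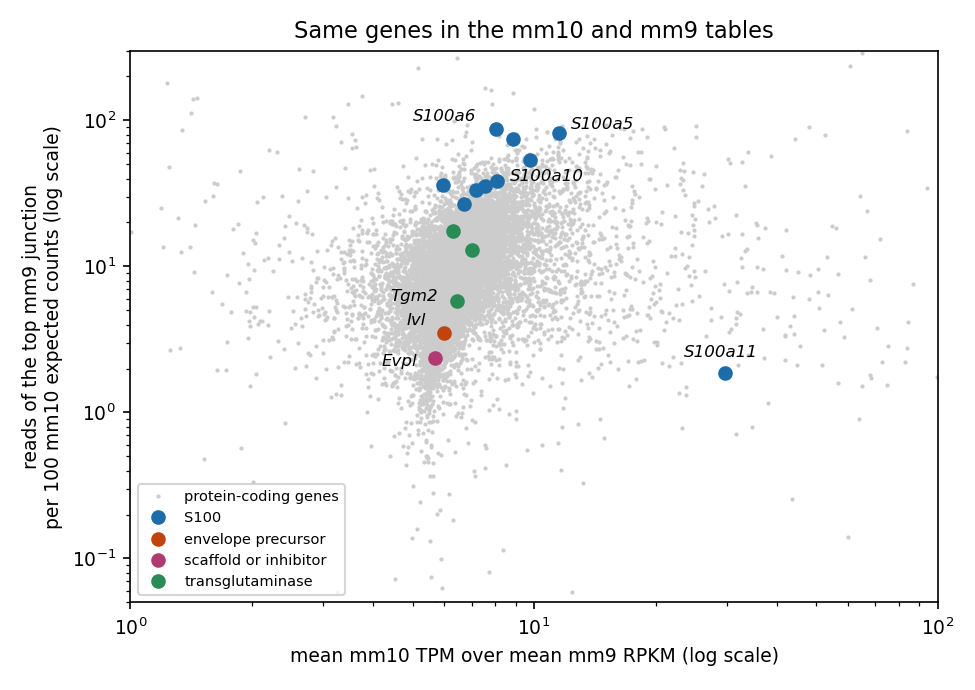
Mean mm10 TPM over mean mm9 RPKM (log axis) against reads of the top mm9 junction per 100 mm10 expected counts (log axis) for 12747 protein-coding genes (grey) and the 15 detected members (coloured by class); 93 of the genes lie outside the axes. S100a11 sits at 29.8 and 1.85, away from the other 9 S100 genes, whose junction values lie between 26.9 and 87.3.

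Along chromosome 3 the detected members stood at both ends of the gene complex and at Ivl. The epidermal differentiation complex, taken here from S100a1 to S100a10, spans chromosome 3, 90511034 to 93564643 (mm10, 3053.61 kb), and holds 74 protein-coding genes, 44 of them members. The 6 members elsewhere are Tgm2, Tgm3 and Tgm5 on chromosome 2, Evpl on chromosome 11, Tgm1 on chromosome 14 and Csta1 on chromosome 16. Of the 44, 11 were detected: 8 S100 genes whose midpoints lie in the first 107.5 kb, Ivl, and S100a11 and S100a10 at the far end. Between Ivl and S100a11 lay 29 members over 946.8 kb, of which 0 were detected and 22 had 0 counts in both libraries. Of the 30 other genes in the interval, 7 were detected, 5 of them among the 15 Sprr genes between Lor and Ivl, whose summed level was 12544 TPM (replicate 1) and 22065 TPM (replicate 2). S100a7a, an S100 gene whose name the rule did not match, had 4.19 and 6.98 TPM.

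**Figure D4:**
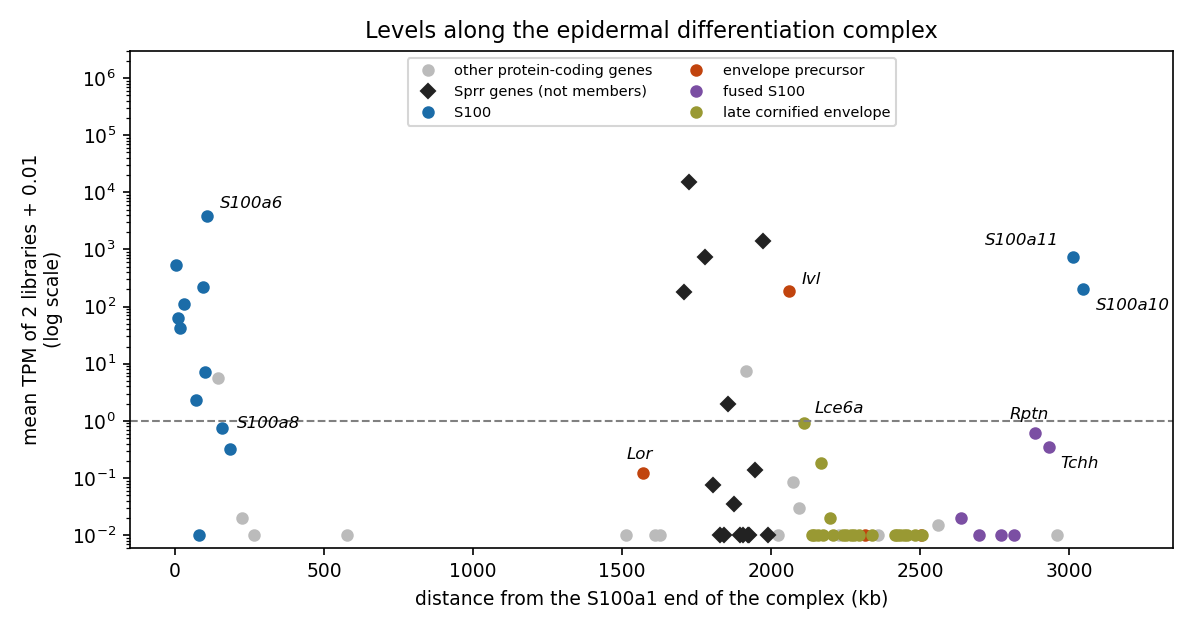
Mean TPM of 2 libraries plus 0.01 (log axis) against the distance in kb from the S100a1 end for the 74 protein-coding genes of the complex, coloured by class, with the Sprr genes as diamonds; the dashed line is the detection level. Members above it lie at the S100a1 end, at Ivl and at the S100a10 end, and the late cornified envelope genes lie along the bottom.

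Binding partners of S100 proteins are set here beside the 60.5% of protein-coding genes detected. Of 12 annexins, which join membranes in a calcium-dependent way, 10 were detected, led by Anxa2 (375 and 505 TPM), Anxa5 (183 and 210 TPM) and Anxa6 (163 and 153 TPM). The log2 ratio of S100a10 to its partner Anxa2 was -1.02 in replicate 1 and -1.18 in replicate 2. Of 12 other partners and receptors 9 were detected, led by Bsg (basigin, 430 and 475 TPM), Ahnak (114 and 92.4 TPM) and Myh9 (106 and 71.6 TPM). Of 4 other S100-related genes, S100pbp (13.8 and 16.3 TPM) and the glial S100b (5.74 and 7.87 TPM) were detected, and S100z and S100g had at most 2 counts in a library.

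The companions of the cornified layer were mixed, and the counts here also stand beside the 60.5% of protein-coding genes detected. Of 15 genes 7 were detected, with Lypd3 at 31.6 and 37.6 TPM, the ceramide synthase Cers3 at 27.7 and 37.7 TPM and Krtdap at 20.6 and 35.5 TPM, while Abca12, Cnfn and Klk5 had 0 counts. Of 10 scaffold and desmosome partners 5 were detected, led by Jup (plakoglobin, 83.7 and 69.6 TPM), Pkp3 (25.0 and 24.0 TPM) and Ppl. All 9 transcription factors of barrier epithelia were detected, with Grhl3 at 44.3 and 59.2 TPM, Klf5 at 49.0 and 40.9 TPM and Klf4 at 41.8 and 38.8 TPM.

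Related enzymes and inhibitors are given beside the same 60.5%. Of the other 6 transglutaminase family genes, F13a1 (coagulation factor XIII A, 23.0 and 23.5 TPM) was detected, and Tgm7, Epb42, Tgm4, Tgm6 and F13b were between 0 and 0.62 TPM. Of 5 peptidylarginine deiminases, which citrullinate filaggrin and other proteins, Padi4 (10.95 and 11.93 TPM) and Padi2 (1.23 and 1.24 TPM) were detected, Padi1 had 0.86 and 0.76 TPM, Padi3 0.23 TPM in each library and Padi6 0 counts. Of 6 cystatins and stefins measured, Cst3 (807 and 900 TPM) and Cstb (144 and 196 TPM) were detected and Cst6 had 0.43 and 0.58 TPM.

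The markers of the tissue were present and those of epidermis and other squamous epithelium mostly not, set beside the 60.5% of protein-coding genes detected. All 7 superficial urothelium markers were detected, and so were all 5 genes listed as basal urothelium (Krt7, Krt15, Krt5, Trp63 and Col17a1). Krt14 (0.65 and 1.25 TPM) and Krt17 (0.31 and 0.46 TPM) were counted in the next list instead. The counts thus depend on how genes were assigned to the lists. Of 14 markers of epidermis and other squamous epithelium 4 were detected (Krt4, Krtdap, Krt10 and Krt1), and Krt2, Krt16 and Krt6b had 0 counts. The summed level of the 14 was 77.9 and 98.2 TPM, of which Krt4, not particular to keratinised epithelium, held 52.0 and 55.6 TPM.

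Few genes differed 2-fold between the libraries, and no detected member did, which at the rate over all genes is not particular to the members. On the log2(TPM + 0.5) scale and with the median of all genes (-0.08) subtracted, 0 of the 15 members lay past a 2-fold difference, against 268 of the 14533 genes whose mean reached 1 TPM (1.84%). With 1 library on each side this has no replicate check and no test. The median over the 15 members was -0.10, with 9 of 15 below 0, and the median size of the difference was 0.29, against 0.20 over all genes. Over the 10 detected S100 genes the median was -0.23, with 8 of 10 below 0.

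S100a6 had the lowest value, -0.78, followed by S100a1 at -0.57, and Ivl was at -0.34. Tgm5 at 0.53, Evpl at 0.51, Tgm2 at 0.29 and S100a11 at 0.25 lay on the side of replicate 1. The superficial urothelium markers had a median of -0.45 and had sums of 4717 and 6771 TPM. The basal urothelium markers had a median of 0.07 and sums of 1375 and 1436 TPM, of which Krt7 held 494 and 558 TPM. The adipocyte markers had a median of -0.92, with sums of 1061 and 2026 TPM. Smooth muscle markers had a median of 0.26 and fibroblast markers 0.29, and the macrophage, glial and skeletal muscle markers had medians of -0.07, -0.11 and 0.10. The skeletal muscle median rests on 3 of the 7 listed genes, Acta1, Ckm and Tnnt3, while Atp2a1, Myh1, Pvalb and Myh4 had at most 0.40 TPM. The part of these cell types in the S100a6 and Ivl values was not tested, and in bulk tissue more cells of a type and more RNA per cell cannot be told apart.

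**Figure D5:**
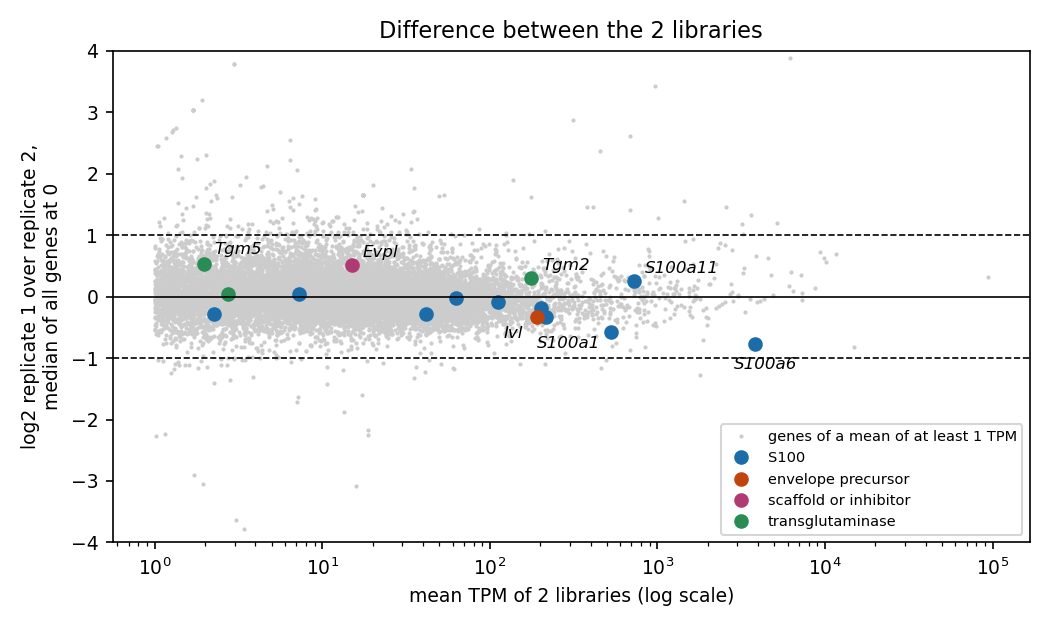
Log2 of replicate 1 over replicate 2, with the median of all genes at 0, against mean TPM (log axis) for 14533 genes (grey, 13 of them beyond the axis) and the 15 detected members (coloured by class); dashed lines mark a 2-fold difference. S100a6 is the lowest member at -0.78 and Tgm5 the highest at 0.53.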

How the data were processed

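The authors deposited mm10 tables (GENCODE M4) of genes and of transcripts in each library, with expected counts (estimated fragments) and TPM scaled over all rows, per the file headers and the descriptions deposited with the samples. Which aligner and counting tool were used is not given in the sources used here. The authors also deposited mm9 tables (Ensembl 65), of which the mean of both RPKM values and the junction read counts summed over libraries were used; no label ties an RPKM value to a replicate. Rows that name no gene took 5.01% and 5.98% of the expected counts and were left out.

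Of the 43346 genes, 42462 matched GENCODE M21, which gave symbols and mm10 positions; promoters come from RefSeq (GRCm38.p6). Detection meant at least 1 TPM in both libraries. Ratios used log2(TPM + 0.5), which understates ratios of low genes, centred on the median over genes whose mean reached 1 TPM. Junction reads were matched to exact annotated introns of at least 50 bases. Shared sequence was counted over windows of 101 bases of M21 transcripts. The members, the partner and marker lists, the gene pairs and the alternatives were chosen with earlier results of these data known; the junction and window counts were chosen after their values were seen. Every member is accounted for: those with at least 10 counts in either library are named with values, and so are, of each partner list, the 3 genes of highest mean or all of a list of up to 6 genes; marker lists are given by counts, sums or medians. The ratio step was tested on simulated data with known fold changes. Those data held counting error only, so the test says nothing of error at the spread seen between these libraries. The alternatives tried were CPM, the posterior mean TPM, other detection levels, pseudocounts and filters, edgeR TMM and DESeq2 size factors, and leaving out each library. Python 3.11.15, pandas 2.3.3, numpy 2.4.6, edgeR 4.0.16 and DESeq2 1.42.0 were used.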

Additional observations from a re-analysis of the deposited data

How the results depend on the processing

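The count of detected members ran from 11 (mm9 RPKM) to 22 (0.1 TPM) against 15, and 15 to 16 with a library left out. The 11 had a mean of at least 1 RPKM, among 46 members matched in mm9. TPM was a median of 6.36 times RPKM, so that level is stricter than 1 TPM, and at 5 TPM the count was 12. Under each of the 8 alternatives 0 members passed 2-fold and the members' median ratio stayed within 0.1 of -0.10. With no filter on the mean this is a weak check, since 23 of the 50 members had 0 counts and the pseudocount shrinks ratios of low members. With CPM in place of TPM the members' share was 0.302% and the S100 share of it 71.8%; with mm9 RPKM the S100 share was 91.2%. Leaving out a library gave 0.517% to 0.80% and 92.2% to 94.5%. Pair ratios (log2) moved with the quantification and, for low genes, with the pseudocount. The same 0.5 was added to RPKM and CPM values as to TPM. On the smaller RPKM scale it shrinks ratios of low genes more, so their shifts are not of the quantification alone. With mm9 RPKM the pair ratios were 4.25 for S100a6 over S100a11, -0.91 for S100a10 over Anxa2, 0.10 for S100a8 over S100a9, -5.47 for Tgm1 over Tgm2, -0.56 for Tgm1 over Tgm3, -0.31 for Evpl over Ppl and 3.43 for S100a1 over S100a13. With CPM they were 3.07, -2.45, 0.085, -7.68, -1.97 and -0.37 for the first 6 of these and -4.93 for S100a4 over S100a6. With pseudocounts of 0.1 and 1 TPM they were 1.14 and 0.41 for S100a8 over S100a9, -7.48 and -6.55 for Tgm1 over Tgm2, -1.52 and -0.98 for Tgm1 over Tgm3, and -0.40 and -0.38 for Evpl over Ppl. With the posterior mean TPM, S100a5-201 held 74.4%, Tgm2-201 99.1% and Tgm5-201 96.6% of their genes. The part of the pseudocount in these shifts and the cause of the other differences between the mm10 and mm9 values were not tested. With S100a11 left out, an alternative chosen after seeing the data, no share moved by more than the spread between the libraries. No paired analysis was possible because the series has 1 group. Members under about 20 counts, S100a8, S100a9, Lor, Lce1c and Csta1 among them, have no reliable order at this depth.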
